A study of Mus musculus with 6 samples.

Results

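The 42 endothelial identity genes described here encode proteins by which vascular endothelium is recognised: junction and surface proteins, receptors, secreted factors, lipid carriers and the transcription factors of the lineage. They were chosen by name, with earlier results of these data known. Every probe that is not a control and whose RefSeq accession belongs to one of these names was taken. All 42 genes were on the array, with 49 probes in all and a pair of probes for 7 of the genes, among 45616 genes and transcripts measured, of which 22911 carried a gene symbol. The arrays held RNA of islet cells of Wnt4eGFPCre; mTmG pups at postnatal day 1, which descend from crosses to C57BL/6J. In these mice, a Cre recombinase produced where Wnt4 is active turns a membrane-bound red reporter into membrane-bound GFP (mGFP), so that mGFP marks a cell that has expressed Wnt4, whether or not it still does. Dissociated islet cells were sorted into mGFP-positive cells (Wnt4hi, 3 arrays: replicates 2, 3 and 4) and mGFP-negative cells (Wnt4low, 3 arrays: replicates 1, 3 and 4). The labels name the populations by reporter only, the study's methods describe pups with both transgenes, and 1 legend of the study lists the negative side as lacking the Cre transgene, so that whether both populations carry it is not settled here. Each array is a pool of 3 or 4 pups, so that spread between arrays is spread between pools. A gate that takes out endothelial cells from either population is not described in the sources used here.

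Pancreatic islets are among the most densely vascularised tissues of the body. Their capillaries have a fenestrated endothelium that grows in response to VEGF-A from the endocrine cells, lays down the islet basement membrane and carries insulin into the blood. Endothelial cells hold to each other through VE-cadherin and related junction proteins, and their gene expression depends on transcription factors of the ETS, SOX and GATA families. Fewer endothelial cells in a sorted population and less RNA per endothelial cell cannot be told apart in these bulk samples.

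Wnt4 itself gave log2 intensities of 11.20, 10.53 and 10.77 in Wnt4hi and of 9.85, 10.10 and 9.31 in Wnt4low. The populations did not overlap, which in this direction held for 9.63% of the features measured on all arrays, and the log2 difference of 1.08 ± 0.27 (SE) passed in limma only unadjusted (adjusted p = 0.21). On each array, 70.5% to 79.5% of the 59305 spots that are not controls were well above background as the scanner software defines it, the median signal was 10.8 to 15.6 times the background, and 0 spots were saturated. Insulin was bright in all 6 samples, with Ins2 at 16.61 to 16.66 in Wnt4hi and at 15.81 to 16.42 in Wnt4low. All values below are log2 intensities after background correction and quantile normalization, all differences are Wnt4hi minus Wnt4low on that log2 scale with the standard error of the limma fit (n = 3 and 3), and adjusted p-values are from limma with Benjamini-Hochberg adjustment over all 45616 features.

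The endothelial identity genes were lower in Wnt4hi cells nearly throughout. Of the 42 genes, 41 had a difference below 0, while 36.4% of all features did. At the study's unadjusted threshold of 0.05, 38 genes were lower in Wnt4hi and 0 were higher, where 5.53% of all features were called lower and 5.06% higher. After adjustment 15 genes remained, namely Pecam1, Cdh5, Esam, Emcn, Podxl, Cd93, Plvap, Esm1, Ptprb, Robo4, Aplnr, Calcrl, Fabp4, Myct1 and Ets1, where 0.406% of all features were called lower and 0.0351% higher. In 38 genes every Wnt4low array lay above every Wnt4hi array, which held for 6.44% of the features measured on all arrays. In the 31996 features that rose well above background on every array of Wnt4hi or of Wnt4low, 6.99% were called lower unadjusted and 7.6% did not overlap in this direction. The median difference of the 42 genes was -2.42, or 5.35-fold, and -2.29 with the 6 genes that were well above background on 0 Wnt4hi arrays set at their bound, while the median of all features was 0.07. Cldn5, Mcam, Arhgef15 and Sox17 were not called and had populations that overlapped. The 15 adjusted calls rested on all 6 arrays: leaving out Wnt4hi replicate 2 left Fabp4 alone, leaving out Wnt4low replicate 3 left Robo4 alone, and leaving out any other array left 0, with 31 to 38 unadjusted calls in these limma fits. When limma took replicate numbers as fixed blocks, 0 genes passed after adjustment (37 unadjusted). That fit compared the populations through replicates 3 and 4 alone, as replicate numbers 1 and 2 each occur in a single population. With the methods' t-test, a plain test that the study names for its data in general and not for the arrays, 0 passed (30 unadjusted).

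**Figure D1:**
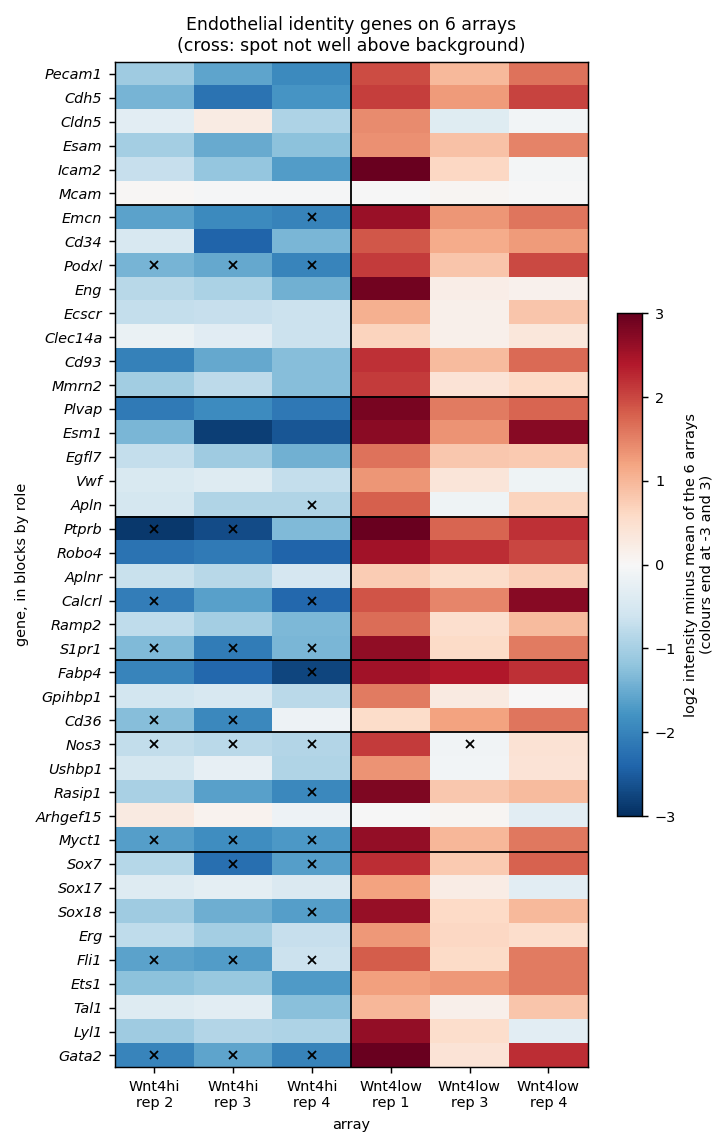
Log2 intensity of each endothelial identity gene (rows, in blocks by role from junction proteins at the top to transcription factors at the bottom) minus its mean over the 6 arrays (columns), with colours that end at -3 and 3. A cross marks a spot that was not well above background: apart from Nos3 on Wnt4low replicate 3, all such spots are on the Wnt4hi side, and Wnt4low replicate 1 has the highest value of the 3 Wnt4low arrays for 35 of the 42 genes.

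Detection split along the same line. In Wnt4low, 42, 41 and 42 of the 42 genes were well above background on replicates 1, 3 and 4. In Wnt4hi, 33, 33 and 29 were on replicates 2, 3 and 4, and 27 genes were on all 6 arrays. The 6 genes that were well above background on 0 Wnt4hi arrays were Podxl, S1pr1, Nos3, Myct1, Fli1 and Gata2. Another 4 genes (Ptprb, Calcrl, Cd36 and Sox7) were well above background on 1 Wnt4hi array and 5 (Emcn, Apln, Fabp4, Rasip1 and Sox18) on 2. For the 6 genes without a measured Wnt4hi level a lower bound of the fold is given in place of a difference, with the lowest signal that counted as well above background on each Wnt4hi array, or the gene's own value if that was higher, standing for the level.

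**Figure D2:**
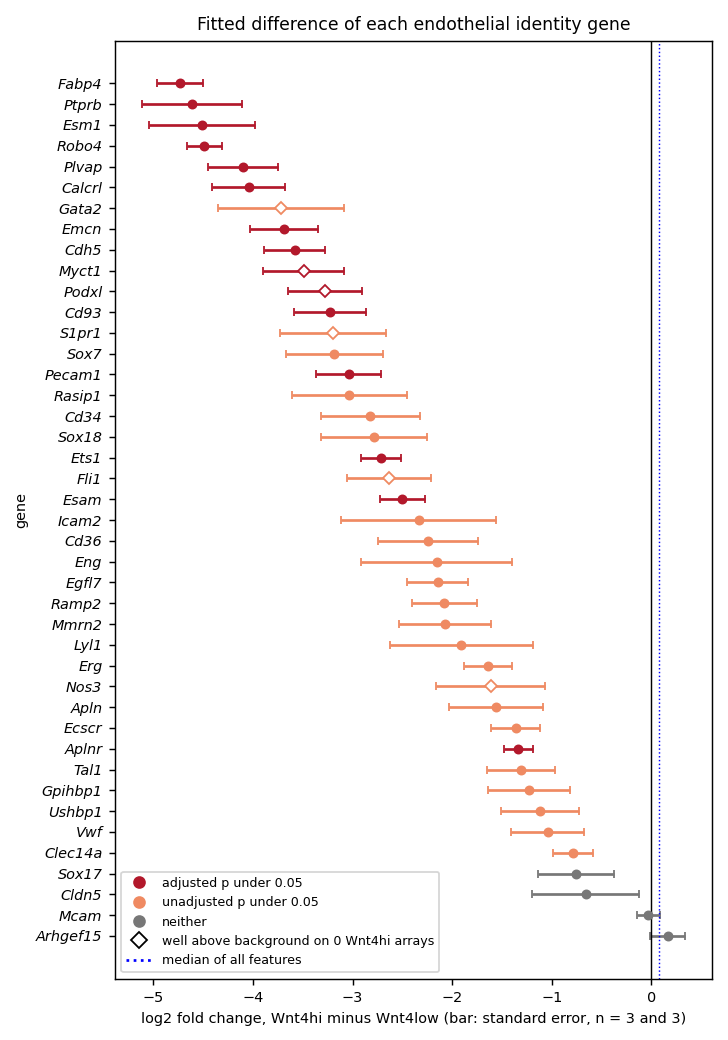
Fitted log2 difference of each endothelial identity gene, Wnt4hi minus Wnt4low, with its standard error (n = 3 and 3), ordered by size. Points left of 0 are lower in Wnt4hi: 15 genes have an adjusted p under 0.05, 23 more an unadjusted p under 0.05, 4 neither, and open diamonds mark the 6 genes that were well above background on 0 Wnt4hi arrays, whose difference is a fitted value and no measured fold.

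By the fitted differences, 6 of the 36 genes that were well above background on at least 1 Wnt4hi array were more than 16-fold lower in Wnt4hi (Plvap, Esm1, Ptprb, Robo4, Calcrl and Fabp4), 6 between 8- and 16-fold, 10 between 4- and 8-fold and 9 between 2- and 4-fold. Of the first 6, Ptprb and Calcrl were well above background on 1 Wnt4hi array and Fabp4 on 2, so that the size of their fold depends on signals near the background, as it does for Emcn, Rasip1, Sox7, Cd36, Sox18 and Apln in the lower bands. Among these 36 genes, where the populations did not overlap, the width of the empty interval between the lowest Wnt4low and the highest Wnt4hi array went from 0.16 for Ushbp1 to 4.16 for Fabp4. It was over 2 for 11 genes and over 3 for Plvap, Ptprb, Robo4, Calcrl and Fabp4.

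The sequence just before the start sites was read from the RefSeq promoters of GRCm38.p6, which hold 25 promoters of 19 of the 42 genes. ETS factors, a family with several members in this set (Erg, Fli1 and Ets1), bind DNA around the core GGAA. Of 3 spellings searched as written and as their reverse complement in the 250 bases before the start, CAGGAAG was in 10 of the 25 promoters (40%), and in 10.8% of all 32851 promoters in the table. By gene, 9 of the 19 (47.4%) had it in at least 1 promoter, and 12.1% of all 27025 genes did. Its 9 genes were Apln, Calcrl, Cd34, Egfl7, Emcn, Erg, Rasip1, Robo4 and Ushbp1. The shorter GGAAG, which every CAGGAAG contains, was in 17 of the 25 (68%) and in 64.1% of all promoters, and CCGGAAG, which also contains it, was in 1 (4%), that of Lyl1, and in 6.91% of all. Of 3 other motifs searched, AGATAA, a spelling bound by GATA factors, was in 3 member promoters (12%) and in 9.99% of all, ACAAAG, a spelling bound by SOX factors, in 5 (20%) and in 16.5% of all, and TATAAA, the TATA box, in 2 (8%) and in 12.4% of all. Promoters of the same gene can overlap. A match is a description of letters and was not tested as a binding site.

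The promoters shown are those of the 5 genes that passed the adjusted threshold and have exactly 1 entry, beside that of Mcam, which did not differ between the populations beyond its error. Capitals mark CAGGAAG or its reverse complement, and each run is the 250 bases before the start on the strand of the gene: chr3:137340828-137341077 (plus) for Emcn, chr9:37401722-37401971 (plus) for Robo4, chr2:84425267-84425516 (minus) for Calcrl, chr13:113209409-113209658 (plus) for Esm1, chr10:5593478-5593727 (plus) for Myct1 and chr9:44134408-44134657 (plus) for Mcam.
Emcn: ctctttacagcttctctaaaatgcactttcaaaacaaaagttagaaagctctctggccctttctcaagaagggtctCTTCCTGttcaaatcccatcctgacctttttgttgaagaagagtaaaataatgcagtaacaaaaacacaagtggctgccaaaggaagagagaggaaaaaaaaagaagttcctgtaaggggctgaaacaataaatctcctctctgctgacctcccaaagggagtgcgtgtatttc
Robo4: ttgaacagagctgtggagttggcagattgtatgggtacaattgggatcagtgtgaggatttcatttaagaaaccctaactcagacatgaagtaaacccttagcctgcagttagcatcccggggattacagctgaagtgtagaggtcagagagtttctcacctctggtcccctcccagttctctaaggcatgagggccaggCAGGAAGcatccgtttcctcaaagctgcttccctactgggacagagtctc
Calcrl: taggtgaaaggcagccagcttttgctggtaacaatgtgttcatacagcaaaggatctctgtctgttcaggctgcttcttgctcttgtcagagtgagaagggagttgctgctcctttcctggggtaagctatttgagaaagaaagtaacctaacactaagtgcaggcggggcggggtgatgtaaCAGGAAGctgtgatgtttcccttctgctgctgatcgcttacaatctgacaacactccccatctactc
Esm1: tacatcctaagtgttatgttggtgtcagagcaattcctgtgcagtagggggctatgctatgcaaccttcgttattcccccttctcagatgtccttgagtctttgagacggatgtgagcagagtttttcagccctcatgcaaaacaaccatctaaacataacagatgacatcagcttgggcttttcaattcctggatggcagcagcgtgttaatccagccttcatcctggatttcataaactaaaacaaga
Myct1: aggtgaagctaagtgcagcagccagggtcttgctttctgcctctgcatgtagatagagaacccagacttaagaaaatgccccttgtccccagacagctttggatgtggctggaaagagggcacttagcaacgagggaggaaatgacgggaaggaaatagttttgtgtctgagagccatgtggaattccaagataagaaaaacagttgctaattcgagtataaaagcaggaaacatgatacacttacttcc
Mcam: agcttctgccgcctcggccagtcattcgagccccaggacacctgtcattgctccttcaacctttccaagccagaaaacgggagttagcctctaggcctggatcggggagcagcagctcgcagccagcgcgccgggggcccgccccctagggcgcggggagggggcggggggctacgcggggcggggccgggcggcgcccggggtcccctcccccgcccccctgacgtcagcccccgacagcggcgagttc
Emcn, Robo4 and Calcrl hold CAGGAAG once each, and Esm1, Myct1 and Mcam do not hold it. Robo4, with the motif, and Esm1, without it, were both more than 16-fold lower in Wnt4hi and well above background on all 6 arrays.

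Junction and adhesion proteins were lower in Wnt4hi for 4 of 6 genes, 3 of them after adjustment. Cdh5, which encodes VE-cadherin, the adherens junction protein of endothelium, read 8.18, 7.36 and 7.81 in Wnt4hi replicates 2, 3 and 4 and 11.65, 10.85 and 11.60 in Wnt4low replicates 1, 3 and 4. Its difference was -3.58 ± 0.31 (adjusted p = 0.0253), or 12.0-fold, and the interval between the populations was wider than the spread within either. Pecam1 (CD31), a homophilic adhesion molecule of endothelium, platelets and leukocytes, read 9.77, 9.25 and 8.92 against 12.80, 11.80 and 12.46, a difference of -3.04 ± 0.33 (adjusted p = 0.0373). Esam, a tight junction adhesion molecule of endothelium and platelets, read 9.77, 9.28 and 9.54 against 12.16, 11.65 and 12.28, a difference of -2.50 ± 0.22 (adjusted p = 0.0269). All 3 were clearly separated, by at least 1.88 between the nearest arrays.

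The other junction genes did not follow alike. Icam2, a ligand of leukocyte integrins, read 9.12, 8.64 and 8.14 in Wnt4hi and 12.76, 10.42 and 9.74 in Wnt4low. The populations did not overlap, but the Wnt4low arrays spread over 3.02, and the difference of -2.34 ± 0.78 passed only unadjusted (adjusted p = 0.353). Cldn5, the main claudin of endothelial tight junctions, read 10.23, 10.79 and 9.60 against 11.97, 10.18 and 10.46, so that Wnt4hi replicate 3 was above 2 of the 3 Wnt4low arrays and the difference was -0.66 ± 0.54 (adjusted p = 0.768). Mcam (CD146), an adhesion molecule shared with pericytes and smooth muscle, read 15.82, 15.75 and 15.75 against 15.78, 15.84 and 15.78, a difference of -0.03 ± 0.12 (adjusted p = 0.962) whose sign changed under 4 other ways of processing. Its 6 values, all from a single probe, lay within 0.1 of each other.

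All 8 surface glycoproteins and their matrix partners were lower in Wnt4hi, 3 of them after adjustment. Emcn, a sialomucin of venous and capillary endothelium, read 7.88, 7.58 and 7.49 in Wnt4hi, where 2 arrays were well above background, and 12.08, 10.83 and 11.10 in Wnt4low. Its difference was -3.69 ± 0.34 (adjusted p = 0.0275). Cd93, a C-type lectin-like receptor of endothelium and myeloid cells, read 9.93, 10.41 and 10.68 against 14.15, 12.90 and 13.65, a difference of -3.23 ± 0.36 (adjusted p = 0.0402). Both were separated by more than 2 between the nearest arrays. Mmrn2, the matrix protein that CD93 and CLEC14A bind, read 8.71, 8.98 and 8.48 against 11.87, 10.17 and 10.35 (difference -2.07 ± 0.46, adjusted p = 0.162). Clec14a itself read 9.93, 9.79 and 9.47 against 10.80, 10.28 and 10.47, the smallest difference among the 38 called genes (-0.78 ± 0.20, adjusted p = 0.215). The lectin receptors and their ligand thus all lay lower in Wnt4hi without overlap, but only Cd93 passed the adjusted threshold.

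Podxl, a sialomucin of the luminal surface that podocytes and early blood cells share, was well above background on 0 Wnt4hi arrays and read 10.14, 8.89 and 10.04 in Wnt4low. It was at least 5.14-fold lower in Wnt4hi (adjusted p = 0.0411). Cd34, the third sialomucin and also a marker of blood progenitors and fibroblasts, read 10.99, 9.06 and 10.10 against 13.32, 12.57 and 12.73 (difference -2.82 ± 0.50, adjusted p = 0.0952). Its values in Wnt4hi spread over 1.93, the widest range of the 42 genes in that population, and its other probe gave -2.59. Eng (endoglin), a co-receptor for BMP9 and TGF-beta, read 9.99, 9.88 and 9.39 against 13.73, 11.04 and 10.96. In Wnt4low, replicate 1 stood 2.73 above the mean of the other two, and the difference of -2.15 ± 0.76 passed only unadjusted (adjusted p = 0.381). Ecscr, a small endothelial membrane protein of cell migration, differed by -1.36 ± 0.25 (adjusted p = 0.101) on its brighter probe, which read 10.13 to 10.18 in Wnt4hi and 11.00 to 11.90 in Wnt4low. Its other probe gave -2.93 and was well above background on 1 Wnt4hi array.

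The 5 genes of the diaphragm and of secreted proteins were all lower in Wnt4hi, 2 of them after adjustment. Plvap, which forms the diaphragms of fenestrae and caveolae in capillaries such as those of islets, read 8.82, 9.05 and 8.78 in Wnt4hi and 13.79, 12.49 and 12.68 in Wnt4low. It was 17.1-fold lower (-4.10 ± 0.35, adjusted p = 0.0253), with Wnt4hi arrays within 0.27 of each other. Esm1, a secreted proteoglycan of VEGF-stimulated tip cells, read 9.24, 7.78 and 8.05 against 13.31, 11.95 and 13.34, a 22.8-fold difference (-4.51 ± 0.53, adjusted p = 0.0433). The nearest arrays of the populations were 2.71 apart, although each population itself spread over at least 1.39.

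The remaining secreted factors differed less. Egfl7, which lines vessel lumens and hosts miR-126 in an intron, read 11.06, 10.72 and 10.33 against 13.40, 12.60 and 12.56 (difference -2.15 ± 0.30, adjusted p = 0.0625). Vwf, the von Willebrand factor stored in Weibel-Palade bodies and in platelets, read 9.29, 9.36 and 9.03 against 11.06, 10.12 and 9.62 (difference -1.04 ± 0.37, adjusted p = 0.383). Apln (apelin), a peptide ligand of tip cells, read 8.06, 7.68 and 7.68 against 10.38, 8.46 and 9.26, with 2 of the Wnt4hi arrays well above background (difference -1.56 ± 0.47, adjusted p = 0.301). For Vwf and Apln the populations were separated by 0.26 and 0.40 and replicate 1 was the highest Wnt4low array.

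Receptors, with the phosphatase VE-PTP, had the lowest median difference of the role groups: -3.62 as fitted and -3.53 with S1pr1 at its bound. In Wnt4hi 6 of 6 were lower, 4 after adjustment. Robo4, an endothelial receptor that stabilises vessels, read 8.14, 8.24 and 7.94 in Wnt4hi and 12.86, 12.57 and 12.36 in Wnt4low. It was 22.4-fold lower (-4.49 ± 0.18, adjusted p = 0.00858), the smallest adjusted p of the set, and the nearest arrays were 4.12 apart while each population spread over 0.50 or less. Ptprb, which encodes VE-PTP, the phosphatase that acts on TIE2 and VE-cadherin, read 6.70, 6.91 and 8.28 against 12.56, 11.36 and 11.80 (difference -4.61 ± 0.50, adjusted p = 0.0374). Only 1 of its Wnt4hi arrays, replicate 4, was well above background.

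Peptide and lipid receptors showed the same direction. Calcrl, the receptor that with RAMP2 binds adrenomedullin, read 7.26, 7.72 and 6.99 against 11.24, 10.80 and 12.06, a difference of -4.04 ± 0.36 (adjusted p = 0.0269) with 1 Wnt4hi array well above background. Ramp2, its partner, read 8.67 to 9.24 against 11.68, 10.51 and 10.96 (difference -2.08 ± 0.33, adjusted p = 0.0734), and its other probe gave -2.37. Calcrl was highest in Wnt4low replicate 4 and Ramp2 in replicate 1. Aplnr, the receptor of apelin, read 11.50, 11.34 and 11.66 against 12.93, 12.71 and 12.87. Its difference of -1.34 ± 0.15 was small among the 42 genes but passed the adjusted threshold (limma, adjusted p = 0.0373), as each population spread over 0.31 or less. S1pr1, the receptor of sphingosine-1-phosphate that keeps junctions tight, was well above background on 0 Wnt4hi arrays and read 11.43, 9.36 and 10.33 in Wnt4low. It was at least 8.13-fold lower in Wnt4hi (adjusted p = 0.0854).

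The 3 genes of lipid handling were lower in Wnt4hi, and Fabp4 had the largest fitted difference of all 42. Fabp4, a fatty acid carrier of capillary endothelium, adipocytes and macrophages, read 8.42, 8.04 and 7.64 in Wnt4hi and 12.92, 12.80 and 12.58 in Wnt4low. It was 26.6-fold lower (-4.73 ± 0.23, adjusted p = 0.014), with 2 Wnt4hi arrays well above background and Wnt4low arrays within 0.34 of each other. Its other probe was well above background on 0 Wnt4hi and 2 Wnt4low arrays and gave a fitted difference of -1.52. Over the alternative ways of processing and the fits without an array, the difference of Fabp4 ranged from -5.07 to -3.13. Cd36, a fatty acid transporter of capillaries, macrophages and platelets, read 7.47, 6.82 and 8.60 against 9.30, 9.96 and 10.35, with 1 Wnt4hi array well above background (difference -2.24 ± 0.50, adjusted p = 0.162). Wnt4low replicate 1 was its lowest Wnt4low array, against the order of most of the genes. Gpihbp1, which carries lipoprotein lipase to the lumen, read 10.03, 10.10 and 9.76 against 12.14, 10.84 and 10.60 (difference -1.23 ± 0.41, adjusted p = 0.352).

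Of 5 cytoplasmic and other regulators, 4 were lower in Wnt4hi and 1 passed after adjustment. Myct1, a membrane protein of the endothelial and blood lineages, was well above background on 0 Wnt4hi arrays and read 11.28, 9.63 and 10.22 in Wnt4low and was at least 8.26-fold lower in Wnt4hi (adjusted p = 0.0433). Rasip1, a RAS-binding protein of lumen formation, read 8.03, 7.37 and 7.06 against 11.79, 9.82 and 9.94 (difference -3.03 ± 0.57, adjusted p = 0.114). Ushbp1 read 9.68, 9.97 and 9.30 against 11.56, 10.13 and 10.61 (difference -1.12 ± 0.39, adjusted p = 0.376). The 2 populations of Rasip1 lay 1.79 apart and those of Ushbp1 0.16. Nos3, the endothelial nitric oxide synthase, was well above background on 0 Wnt4hi and 2 Wnt4low arrays, read 9.41, 7.22 and 7.76 in Wnt4low and was at least 1.74-fold lower in Wnt4hi (adjusted p = 0.358), a bound that fell to 1.12-fold without Wnt4low replicate 1. Arhgef15, a guanine nucleotide exchange factor, read 15.29, 15.12 and 14.87 against 15.01, 15.07 and 14.71, with a difference of 0.16 ± 0.18 (adjusted p = 0.833). Its other probe read 6.48 to 6.88 and was well above background on 0 of 6 arrays. The probes of this gene thus stood far apart. Whether the brighter probe reads Arhgef15 alone was not tested.

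Transcription factors of the endothelial lineage were lower in Wnt4hi for 8 of 9 genes, 1 of them after adjustment. Ets1, an ETS factor shared with lymphocytes, read 9.72, 9.81 and 9.24 in Wnt4hi and 12.18, 12.24 and 12.51 in Wnt4low. Its difference was -2.72 ± 0.20 (adjusted p = 0.0195), and its other probe, well above background on 0 Wnt4hi and 3 Wnt4low arrays, gave a fitted difference of -3.91. Erg, the ETS factor most restricted to endothelium, read 7.76, 7.51 and 7.84 against 9.83, 9.14 and 9.06 (difference -1.64 ± 0.24, adjusted p = 0.0671). Fli1, the ETS factor of endothelium, megakaryocytes and other blood cells, was well above background on 0 Wnt4hi arrays, read 9.53, 8.28 and 9.28 in Wnt4low and was at least 3.25-fold lower in Wnt4hi (adjusted p = 0.078). The 3 ETS factors shared the direction and the separation of the populations, and Ets1 alone passed the adjusted threshold.

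The SOXF factors, which direct arterial and lymphatic endothelium, differed among themselves. Sox7 read 8.36, 6.94 and 7.56 against 11.44, 10.00 and 10.98, with 1 Wnt4hi array well above background (difference -3.18 ± 0.49, adjusted p = 0.0702). Sox18 read 8.33, 7.93 and 7.74 against 12.00, 9.98 and 10.36, with 2 (difference -2.78 ± 0.53, adjusted p = 0.115). Both were separated by at least 1.63. Sox17 read 8.87, 8.98 and 8.82 against 10.48, 9.50 and 8.96, so that Wnt4hi replicate 3 was just above Wnt4low replicate 4, and its difference of -0.76 ± 0.38 did not pass (adjusted p = 0.575). Its other probe read 8.56, 8.04 and 8.15 against 12.82, 8.92 and 7.89 (difference -1.63), with Wnt4low replicate 1 far above and Wnt4low replicate 4 below all Wnt4hi arrays.

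Gata2, Tal1 and Lyl1, factors that endothelium shares with blood stem and progenitor cells, were lower in Wnt4hi at the unadjusted threshold. Gata2 was well above background on 0 Wnt4hi arrays, read 11.78, 9.22 and 11.03 in Wnt4low and was at least 9.57-fold lower in Wnt4hi (adjusted p = 0.0893), a bound that rose to 15.9-fold without Wnt4low replicate 3. Tal1 read 8.61, 8.68 and 7.73 against 9.98, 9.16 and 9.82 (difference -1.31 ± 0.34, adjusted p = 0.222). Lyl1 read 8.12, 8.31 and 8.25 against 11.83, 9.71 and 8.86 (difference -1.91 ± 0.72, adjusted p = 0.424). Lyl1 was even in Wnt4hi and spread over 2.96 in Wnt4low.

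Spread within the populations was compared over the 27 genes that were well above background on all 6 arrays. Their median SD was 0.51 in Wnt4low and 0.25 in Wnt4hi, and 21 of the 27 (77.8%) had the larger SD in Wnt4low. Over the 28882 features with the same detection, the median SD was 0.28 and 0.26, and 53.6% had the larger SD in Wnt4low. The range of the Wnt4low arrays was over 2 for 7 of the 42 genes (Icam2, Eng, S1pr1, Nos3, Sox18, Lyl1 and Gata2), of which Icam2, Eng and Lyl1 were well above background on all 6 arrays. As the median of each gene's deviation from its mean over the 6 arrays, the set stood at 1.93, 0.60 and 0.96 in Wnt4low replicates 1, 3 and 4 and at -0.99, -1.31 and -1.33 in Wnt4hi replicates 2, 3 and 4. Wnt4low replicate 1 was the highest Wnt4low array for 35 genes, replicate 4 for 5 and replicate 3 for 2. In Wnt4hi, replicate 2 was the highest for 22 genes, replicate 3 for 13 and replicate 4 for 7.

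The height of Wnt4low replicate 1 was uneven across the set. It stood above the mean of the other Wnt4low arrays by 2.73 for Eng, 2.68 for Icam2 and 2.54 for Lyl1, but by 0.43 for Cdh5, 0.40 for Robo4 and 0.23 for Fabp4, and it was below that mean for Calcrl (-0.20), Ets1 (-0.20) and Cd36 (-0.85). Gja4, a connexin of arterial endothelium outside the set, read 15.94 on that array and 11.12 and 11.32 on the other Wnt4low arrays, a step of 4.73. Without this array the differences moved by over 1.5-fold to -1.44 for Icam2, -1.24 for Eng, -1.06 for Lyl1, -2.40 for Rasip1, -2.17 for Sox18 and, as a fitted value, from -1.61 to -0.97 for Nos3, while those of Robo4 and Fabp4 were -4.35 and -4.66. Without Wnt4low replicate 4 they were -2.96 for Icam2 and -2.54 for Lyl1, and without Wnt4low replicate 3 the fitted value of Gata2 went from -3.72 to -4.45. The β-cell markers moved the other way on the same array: their median deviation was -1.10 there and 0.05 and -0.64 on Wnt4low replicates 3 and 4. The part of this array's cell makeup in the values of single genes was not tested.

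**Figure D3:**
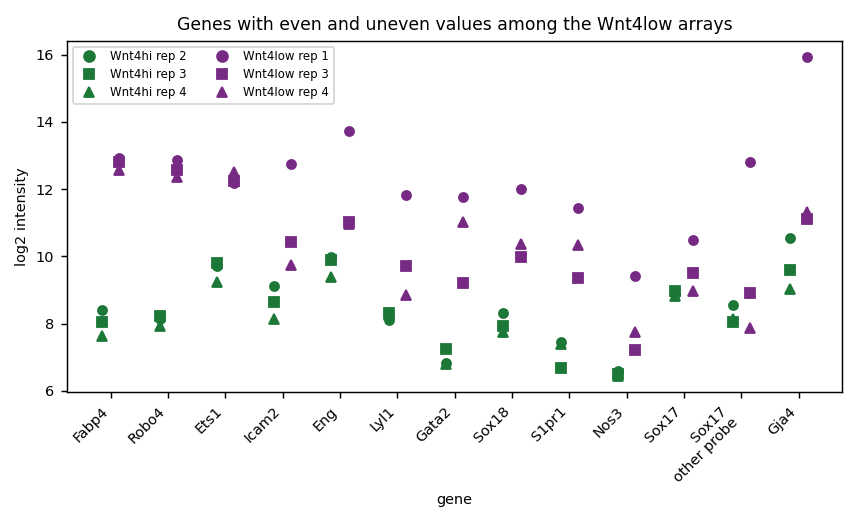
Log2 intensity per array of 3 genes with even values among the Wnt4low arrays (Fabp4, Robo4 and Ets1), of the 7 genes whose Wnt4low arrays spread over more than 2, of both Sox17 probes and of the arterial connexin Gja4, chosen after their values were seen. Green is Wnt4hi, purple Wnt4low, and symbols give the replicate number. Wnt4low replicate 1 (purple circles) stands far above the other Wnt4low arrays for Eng, Icam2, Lyl1, the other Sox17 probe and Gja4. It lies close to them for Fabp4 and Robo4, where it is the highest, and for Ets1, where it is the lowest.

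Other genes of vascular endothelium, listed by role, were lower in Wnt4hi for 30 of 52 measured and higher for 1 at the unadjusted threshold, and lower for 8 after adjustment, with a median difference of -1.08. Of the receptors of VEGF and angiopoietin, the main growth factors of endothelium, 6 of 7 were lower. Kdr (VEGFR2) read 8.49, 8.02 and 8.46 against 12.45, 11.78 and 12.62 (difference -3.96 ± 0.27, adjusted p = 0.0189), and Flt1 (VEGFR1) 9.59, 7.28 and 7.49 against 12.54, 11.78 and 11.70 (difference -3.88 ± 0.64, adjusted p = 0.0837, and -4.62 without Wnt4hi replicate 2). Tek (TIE2) and Tie1 were well above background on 0 Wnt4hi arrays and were at least 7.59-fold (adjusted p = 0.0195) and at least 12.3-fold (adjusted p = 0.0661) lower, and the bound of Tie1 was 19.5-fold without Wnt4low replicate 4. All 4 receptors had Wnt4low arrays above all Wnt4hi arrays, as did the VE-PTP gene Ptprb, whose product acts on TIE2.

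Of the ligands of these receptors, 1 of 6 was called. Angpt1, the angiopoietin that perivascular cells make, was at least 6.22-fold lower in Wnt4hi (adjusted p = 0.0616). Vegfa read 13.41, 13.42 and 13.46 in Wnt4hi and 11.16, 12.95 and 12.90 in Wnt4low, without overlap and in the direction opposite to the receptors, but did not pass (difference 1.09 ± 0.49, adjusted p = 0.515, and 0.51 without Wnt4low replicate 1). Its lowest value was on Wnt4low replicate 1, the array on which most of the endothelial identity genes were highest.

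Of 11 arterial and Notch genes 5 were lower, among them Notch4 (difference -3.39 ± 0.37, adjusted p = 0.0377), Hey1 (-3.26 ± 0.61, and -3.85 without Wnt4hi replicate 2) and Efnb2 (-1.79 ± 0.33), while 6 did not pass: Gja4 (-3.07 ± 1.33, adjusted p = 0.5, and -1.50 without Wnt4low replicate 1) and, with differences from -0.55 to -0.13, Dll4, Gja5, Notch1, Sema3g and Bmx. Of 5 venous genes 3 were lower, Nr2f2 after adjustment (-1.11 ± 0.14, adjusted p = 0.0491), and of 5 lymphatic genes 1, Pdpn, which other cells also make. Lyve1, Mmrn1, Ccl21a and Reln did not pass. Of 18 other endothelial genes 14 were lower, such as Ly6c1 (-3.69 ± 0.29, adjusted p = 0.0195) and Mef2c (-2.54 ± 0.26, adjusted p = 0.0333), and Ece1 was higher (0.60 ± 0.15, adjusted p = 0.199). Whether the shares called differ between these groups was not tested.

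All 11 genes of the vascular basement membrane were lower in Wnt4hi at the unadjusted threshold, 10 without overlap, and 0 after adjustment by limma, with a median difference of -1.87. Col4a2 had the largest (-3.06 ± 0.47, adjusted p = 0.0702) and Lama5 the smallest (-1.05 ± 0.22, adjusted p = 0.137). Pericytes and fibroblasts make several of these proteins as well.

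Part of the markers of pericytes, fibroblasts and leukocytes was also lower in Wnt4hi. Of 12 pericyte and smooth muscle markers, 8 were lower in Wnt4hi and 0 higher (1, Mylk, after adjustment), with a median difference of -1.63 and a summed level (log2 of summed intensities) of 15.03 to 15.45 in Wnt4hi and 15.98 to 16.46 in Wnt4low. Of 10 fibroblast markers 7 were lower, with summed levels of 14.12 to 15.72 and 16.04 to 16.36. Of 10 macrophage markers 5 were lower (13.32 to 14.05 and 14.35 to 14.49), and of 10 markers of other leukocytes 6 (12.10 to 12.64 and 13.20 to 13.66). Ptprc (CD45), carried by all leukocytes, read 8.11, 6.12 and 7.17 in Wnt4hi and 9.14, 8.86 and 10.67 in Wnt4low. In Wnt4hi, 1 of its arrays was well above background. Mrc1, S100a8 and Cpa3 were well above background on 0 Wnt4hi arrays, and Ms4a1 on 0 arrays of either population. Csf1r (difference 0.07), C1qa (-0.07), Kit (-0.30) and Cd3e (0.40) were well above background on all 6 arrays, were not called and had populations that overlapped. On Wnt4low replicate 1 the pericyte list had its lowest Wnt4low level, while the endothelial identity genes had their highest. The part of these cells in the values of the genes they share with endothelium was not tested.

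Platelet, erythroid, endocrine and other lists were counted in the same way. Of 7 megakaryocyte and platelet markers 0 were called in either direction at the unadjusted threshold by limma, with a median difference of -0.05, and 4, 5 and 5 of them were well above background on Wnt4hi replicates 2, 3 and 4 and 5, 6 and 4 on Wnt4low replicates 1, 3 and 4. Of 8 erythroid markers 2 were lower. Of 10 β-cell markers 6 were higher in Wnt4hi and 0 lower (median difference 1.16), of 8 α-cell markers 3 were higher and 0 lower (1.71), of 6 δ- and PP-cell markers 2 were higher and 2 lower, of 8 acinar markers 1 was lower, of 8 ductal markers 1 was higher and 1 lower, and of 8 Schwann and neural crest markers 2 were lower. All 10 β-cell markers were well above background on all 6 arrays, in both populations.

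**Figure D4:**
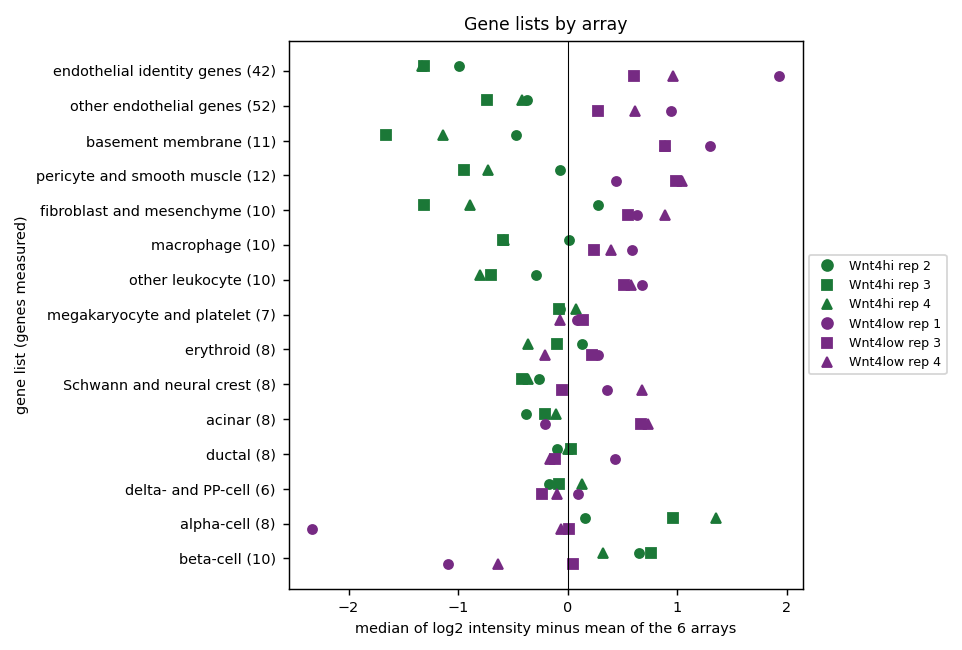
Median over the genes of each list of the log2 intensity minus its mean over the 6 arrays, for each array (green Wnt4hi, purple Wnt4low, symbols by replicate number), with the number of genes measured in brackets. The endothelial identity genes run from -1.33 on Wnt4hi replicate 4 to 1.93 on Wnt4low replicate 1 without overlap of the populations, and the β-cell and α-cell markers run the opposite way.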

How the data were processed

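RNA of the 6 sorted samples was amplified, labelled with Cy5 and hybridised to Agilent SurePrint G3 Mouse 8x60K arrays in a single color. As deposited, the scanner files hold raw values per spot, the median intensity and the median local background, (Agilent Feature Extraction, version 9.1 in the submitters' processing notes), and software flags. The authors also deposited normalized log2 values averaged over probes (36693 rows, 36 of the 42 genes). The column of that table for Wnt4hi replicate 2 correlated at 0.29 with its own scanner array and the others at 0.89 to 0.91, so it served as an alternative only. Intensities were corrected here with normexp (offset 50), as in the study's methods, and quantile-normalized with limma 3.58.1 (R 4.3.3). Outlier spots (50 to 141 per array) were left out, spots of a probe averaged, and a gene was represented by its brightest probe. Probes were named through RefSeq accessions (GRCm38.p6, names only). lmFit and eBayes compared 3 Wnt4hi with 3 Wnt4low arrays without covariates, and p-values were adjusted by Benjamini-Hochberg over 45616 features. Precision is limited by the 3 arrays per population, and all 6 arrays lie on 1 slide with 1 scan time. All 42 genes and the lists by role are named, other lists by counts and examples. The 42 genes and all lists were chosen with earlier results of these data known. The calculation was tested on simulated data. Alternatives changed the background correction, normalization, filter, outlier spots, probe choice, variance model, test, values and pairing, and left out each array.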

Additional observations from a re-analysis of the deposited data

How the results depend on the processing

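The 38 unadjusted calls ranged from 30 (the methods' t-test, which the study names for its data in general, not for the arrays) to 38 of 42 genes, with 31 to 38 when an array was left out, lowest without Wnt4hi replicate 4, and 32 of the 36 genes in the authors' table. The calls of Icam2, Eng, Vwf, Apln, Gpihbp1, Nos3, Ushbp1 and Lyl1 were lost in the t-test, and those of all of these but Apln without at least 1 array. The median difference ranged from -2.28 to -2.80. The 15 adjusted calls became 24 with the filter on dim probes (508 adjusted features in place of 201), which Emcn, Podxl, Ptprb, Calcrl, S1pr1, Fabp4, Rasip1, Myct1, Sox7, Fli1 and Gata2 among them passed through Wnt4low alone, and 0 with the methods' t-test, which called 0 features adjusted but 1861 lower and 2202 higher unadjusted. They numbered 16 in the authors' table, which had 406 adjusted features, and 12 of them were among the 15. Leaving out 1 array gave 0 to 1 gene and 0 to 9 features after adjustment. The cause of these shifts was not tested. The difference of Mcam turned to 0.0116 with the processed signal, 0.0391 with median centring, 0.175 with cyclic loess and 0.00237 in the authors' table, and that of Arhgef15 to -0.000699 with the mean of its probes.

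Replicates 3 and 4 occur in both populations. Same-numbered arrays deviated from their population means together with r = -0.03 and 0.16, and arrays with different numbers with r from -0.23 to 0.18. With 3 arrays per population, these values cannot show whether same-numbered arrays came from the same pups. The number of pups was 4 for replicate 3 and 3 for replicate 4 in both populations. The main fit did not take the numbers as pairs. With the number as a fixed replicate block, limma called 0 features and 0 of the 42 genes after adjustment. Unadjusted, 37 genes were called (Ushbp1 was lost). Replicate numbers 1 and 2 each occur in a single population, so this fit compared the populations through replicates 3 and 4 alone. With a random block 16 genes were called after adjustment. In all, 758 values of single genes kept their direction and side of the threshold, 27 lost the call, 1 gained it (Sox17 without Wnt4low replicate 4) and 5 turned direction.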
